A study of Homo sapiens with 28 samples.

Results

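The genes described here are 44 human genes of DNA replication and cell division: 25 replication genes and 19 mitosis genes. They were chosen by name, with earlier results of these data known. All 44 were found among the 26346 gene symbols of the deposited count files, and all 44 passed the low-count filter that left 14220 genes for testing. They were followed in AN3CA cells, an established human endometrial carcinoma cell line, in 28 RNA-seq libraries of 13 groups. Every library came from AN3CA cells carrying a vector, with no treatment given. The empty vector group had 4 libraries, and each of the 12 construct groups had 2. ARID1A and ARID1B are the alternative DNA-binding subunits of cBAF, a chromatin remodelling complex, and the study asked what their disordered regions contribute to condensation of the complex and to transcription. Of the ARID1A constructs 1 was wild-type (WT), CBR and delIDR1 were truncations, DBDmut carried a mutated ARID domain, the DDX4 hybrid held DDX4's disordered region, AQGscram was an AQG scramble, and the last was a mutant the labels spell 42YS in one field and in another order elsewhere. The ARID1B constructs were wild-type (WT), M2 (a short internal deletion), A457_G461del, Block13del and Block9del. The labels do not say which promoter drives the constructs, whether lines are clonal, what ARID1A or ARID1B the host cells keep, or if the libraries of a group are from different cultures. P-values therefore measure the spread between libraries, which may be technical.

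Reads on genes ran from 16568010 to 27867107 per library. The share of stranded gene reads on the opposite strand was used to split the libraries into 3 strand profiles, at set cutoffs of 90% and 98%. The labels do not mention these profiles. The first profile (84.5 to 87.8%) held empty vector replicates 1 and 2, here the first pair, with CBR, DBDmut, delIDR1 and ARID1A WT. The second (98.1 to 98.6%) held empty vector replicates 3 and 4, the second pair, with M2, the DDX4 hybrid and ARID1B WT. The third (96.7 to 97.9%) held the other 5 constructs and no empty vector library. Levels are given as CPM, counts scaled to library size. ARID1A stood at 272 to 300 CPM with the empty vector and at 517 to 1040 CPM in the ARID1A constructs of the first 2 profiles. It stood at 284 and 210 CPM in the libraries labelled AQGscram, no higher than in the empty vector, and at 373 and 375 CPM in 42YS. ARID1B ranged from 88.5 to 104 CPM with the empty vector, stood at 3440 and 3760 CPM in ARID1B WT and at 4320 and 4180 CPM in M2, and was lower in A457_G461del (2260 and 2210), Block13del (888 and 878) and Block9del (343 and 344). Reads from a construct and from the endogenous gene cannot be told apart in these counts. The AQGscram replicates differed most of any pair, with a chi-square of 27.9 per degree of freedom over genes against 1.17 to 4.58 in the other pairs. The tests below share an estimate of spread per gene over all 28 libraries, so this pair enters the SE of every comparison. Its replicates stood wide apart in MKI67 (409 and 255 CPM), CENPF (368 and 244 CPM) and CENPE (114 and 80.1 CPM). For these genes a missed threshold elsewhere carries that spread too. Of the cell type markers, leukocyte PTPRC, CD3E and LYZ and endothelial PECAM1, VWF and CDH5 reached at most 0.459 CPM, while CD68 ranged from 1.18 to 16.5 CPM. Among epithelial markers KRT18 ranged from 9.88 to 83.2 CPM and EPCAM reached only 0.809 CPM, and of the endometrial markers HOXA10 stood at 5.83 to 22.7 CPM while PAX8, ESR1 and PGR reached at most 0.234 CPM.

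A cell prepares to copy its DNA in G1, when ORC, CDC6 and CDT1 load the ring-shaped MCM2 to MCM7 helicase at origins, and fires those origins in S phase, when CDC45 and the GINS complex join the ring. The E2F transcription factors switch on most genes of this step, and cyclin E with its kinase relieves the retinoblastoma protein's hold on E2F. Genes of mitosis are transcribed later, in G2, by MuvB complexes with B-MYB (the product of MYBL2) and FOXM1. These complexes act through the cell cycle homology region (CHR) of the promoters, which often hold CCAAT boxes as well. In p53-driven arrest, the inhibitor p21 (the product of CDKN1A) stops cyclin-dependent kinases and both programmes fall.

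The lists differ in the letters of their promoters. RefSeq promoter windows (GRCh38.p14, 250 bases before to 50 after the gene start) were found for 21 replication and 16 mitosis genes. None was in the table for CCNE2, GINS4, MCM4, MCM5, AURKA, BIRC5 and TTK. An E2F core (TTCCCGC or TTGGCGC or TTCGCGC or TTGCCGC, either strand, overlapping matches on the opposite strands counted apart) was present in 18 of the 21 replication genes (85.7%), in 3 of the 16 mitosis genes (18.8%) and in 15.3% of all 27305 genes with a window. A CHR (TTTGAA or TTTAAA, either strand) was present in 13 of the 16 mitosis genes (81.2%), in 4 of the 21 replication genes (19%) and in 27.9% of all genes. A CCAAT box (CCAAT, either strand) was present in 14 mitosis genes (87.5%), 13 replication genes (61.9%) and 39.7% of all genes. Median GC content was 67.7% in the replication windows, 60.7% in the mitosis windows and 58.7% over all 35116 windows. A match describes letters in the window and is not shown to be a bound site.

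Windows of 2 replication genes and 2 mitosis genes are shown, because each carries the letters frequent in its list, 5′ to 3′ on the strand of the gene, as RefSeq gives them, with every E2F core, CHR and CCAAT match in capitals. MCM6 (chr2:135876394-135876693, minus strand), a subunit of the helicase ring, holds E2F cores that overlap on the opposite strands and 2 CCAAT boxes. CDC6 (chr17:40287629-40287928, plus strand), the loader, holds 1 E2F core near the gene start and 3 CCAAT boxes. TOP2A (chr17:40417847-40418146, minus strand), the topoisomerase that untangles chromosomes, holds 2 CHR and 4 CCAAT matches and no E2F core. PLK1 (chr16:23678639-23678938, plus strand), a mitotic kinase, holds 3 CHR matches and 1 CCAAT box and no E2F core. The read counts were made on hg19, and no coordinate of that build is used.
MCM6: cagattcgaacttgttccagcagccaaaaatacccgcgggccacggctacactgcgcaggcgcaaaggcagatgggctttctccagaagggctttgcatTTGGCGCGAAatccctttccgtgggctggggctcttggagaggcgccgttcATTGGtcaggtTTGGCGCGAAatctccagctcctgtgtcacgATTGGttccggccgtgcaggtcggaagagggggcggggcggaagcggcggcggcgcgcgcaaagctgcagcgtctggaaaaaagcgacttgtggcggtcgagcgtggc
CDC6: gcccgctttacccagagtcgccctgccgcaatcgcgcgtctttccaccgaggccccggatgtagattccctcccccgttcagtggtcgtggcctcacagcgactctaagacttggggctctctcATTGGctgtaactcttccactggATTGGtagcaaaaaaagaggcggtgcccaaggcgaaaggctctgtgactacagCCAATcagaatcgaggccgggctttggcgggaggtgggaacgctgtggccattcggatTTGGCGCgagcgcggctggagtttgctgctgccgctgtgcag
TOP2A: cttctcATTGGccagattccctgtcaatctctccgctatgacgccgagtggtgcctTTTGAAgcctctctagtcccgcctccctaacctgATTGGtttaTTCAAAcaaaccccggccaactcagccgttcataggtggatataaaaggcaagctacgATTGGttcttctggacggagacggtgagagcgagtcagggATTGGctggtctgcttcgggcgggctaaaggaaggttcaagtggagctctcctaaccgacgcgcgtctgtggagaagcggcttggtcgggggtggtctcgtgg
PLK1: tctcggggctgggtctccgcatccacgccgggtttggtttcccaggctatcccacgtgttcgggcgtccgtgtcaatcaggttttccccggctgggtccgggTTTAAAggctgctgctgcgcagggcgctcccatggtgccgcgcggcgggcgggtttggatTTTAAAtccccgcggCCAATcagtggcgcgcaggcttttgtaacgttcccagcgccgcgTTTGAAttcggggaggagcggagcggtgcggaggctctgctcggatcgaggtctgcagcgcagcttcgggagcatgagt

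Summed over the list, the replication genes ran from 1256 and 1266 CPM in delIDR1 to 3840 and 3777 CPM in Block9del. The mitosis genes ran from 1472 and 1511 CPM in delIDR1 to 3832 and 3747 CPM in the same Block9del libraries, and in both sums Block13del came next highest by mean. CPM values are given after TMM scaling, which matches library composition, and are not adjusted for gene length, so levels are compared between libraries and not between genes. Within the first profile both sums were ordered, from low to high, delIDR1, CBR, empty vector, ARID1A WT and DBDmut, with no overlap between neighbouring groups. A sum weighs the most read genes most. MCM7 alone stood at 270 and 257 CPM in CBR against 392 and 380 CPM in the first empty vector pair. The replication genes of CBR moved in both directions, as given below. In the second profile ARID1B WT was lowest for both lists (1723 and 1715 CPM for replication, 1934 and 1966 CPM for mitosis) and M2 next. The DDX4 hybrid lay inside the range of the second empty vector pair for replication (2999 and 3003 CPM against 2984 and 3040 CPM) and exceeded it for mitosis (3584 and 3497 CPM against 2942 and 2965 CPM). The empty vector itself stood far apart between profiles, with replication sums of 1711 and 1659 CPM in the first pair.

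**Figure D1:**
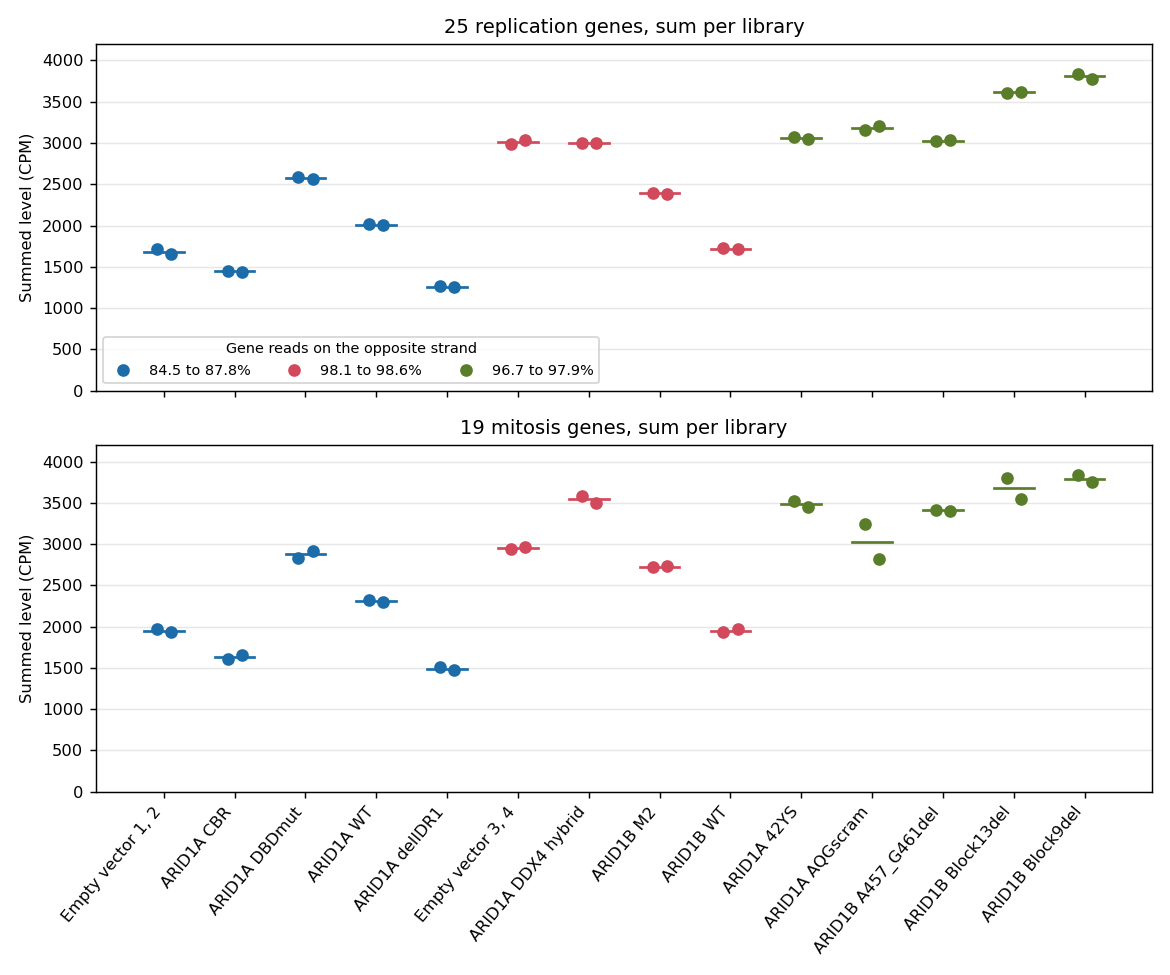
Summed level in CPM of the 25 replication genes (top) and the 19 mitosis genes (bottom) in each of the 28 libraries, with points for libraries, bars for group means and colours for the share of gene reads on the opposite strand. In the first profile the groups climb from delIDR1 to DBDmut, and the second empty vector pair (2984 and 3040 CPM for replication) lies well above the first (1711 and 1659 CPM).

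The empty vector pairs, which carry one label, differed from each other by a larger replication median than any construct did from its own pair. In edgeR's quasi-likelihood test across all genes (two-sided, Benjamini-Hochberg adjusted p under 0.05, used throughout), all 25 replication genes and 18 of 19 mitosis genes were higher in the second pair than in the first. Of all 14220 genes, 28.8% were called higher, 29.7% lower and 58.5% in either direction. The median log2 difference was 0.89 for replication genes, or 1.85-fold, and 0.58 for mitosis genes, or 1.49-fold, against -0.02 over all genes. In bulk RNA, fewer cycling cells and less of these RNAs per cell cannot be told apart, and here the pair cannot be told apart from its strand profile.

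The loader CDC6 and the polymerase epsilon subunit POLE2 differed most. CDC6 stood at 131 and 132 CPM in the second pair and at 35.0 and 33.2 CPM in the first, a log2 difference of 1.94 ± 0.051 (estimate ± SE of the fit, as in all that follows). POLE2 stood at 13.2 and 11.7 against 3.31 and 3.10 CPM (1.95 ± 0.12), and was the least read member, with as few as 52 reads in a library. Helicase, clamp and nucleotide genes were higher too, by unequal amounts. The helicase subunit MCM4 stood at 175 and 175 against 68.6 and 63.9 CPM (1.40 ± 0.05), while MCM7, which held the smallest rise on the list, stood at 408 and 451 against 392 and 380.3 CPM (0.15 ± 0.054). MCM2 stood at 186 and 189 against 97.8 and 91.6 CPM (1.98-fold). In every replication gene named here both libraries of the second pair lay above both of the first, as did 37.9% of all genes, with 41% wholly below. Such separation is common with 2 libraries a group: in the comparisons of constructs with their own pair 34.2 to 40.9% of all genes lay wholly above and 35.7 to 43.5% wholly below, and in those between constructs 20.8 to 39.5% and 17.4 to 43.5%. It is given below as a description of the values. The sliding clamp PCNA stood at 159 and 168 against 81.2 and 75.5 CPM (1.06 ± 0.052). The polymerase alpha catalytic subunit POLA1 stood at 65.2 and 70.1 against 45.1 and 45.9 CPM (0.57 ± 0.076). Ribonucleotide reductase supplies the nucleotides for the fork. Its small subunit RRM2 stood at 243 and 245 against 101 and 101 CPM (1.28 ± 0.04), and its large subunit RRM1 at 200 and 189.8 against 124 and 129 CPM (0.62 ± 0.046). Of the G1/S regulators, cyclin E2 (CCNE2) stood at 13.2 and 13.0 against 5.26 and 5.35 CPM (1.30 ± 0.12), cyclin E1 (CCNE1) at 26.4 and 26.1 against 17 and 16.3 CPM (0.66 ± 0.074). E2F1 stood at 47.1 and 47.0 against 30.9 and 30.4 CPM (0.62 ± 0.071). RRM2, RRM1, CCNE2, CCNE1 and E2F1 lay above the first pair in both replicates. The GINS subunit GINS1, at 33.0 and 32.8 against 26.4 and 23.4 CPM, rose least of the origin genes (0.40 ± 0.082).

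The mitosis median was smaller, and 1 mitosis gene did not pass the test. The mitotic kinase CDK1 stood at 94.0 and 88.7 CPM in the second pair and 95.3 and 89.0 CPM in the first, overlapping, with a difference of -0.01 ± 0.062 (adjusted p = 0.882). Its partner cyclin B1 (CCNB1) stood at 301 and 297 against 159 and 146 CPM (0.97 ± 0.047) and was called higher, so of the kinase and cyclin that drive entry into mitosis 1 passed the test. AURKB, the kinase of the chromosomal passenger complex, stood at 56.6 and 54.9 against 26.6 and 26.9 CPM (1.06 ± 0.074), and its relative AURKA, which works at spindle poles, at 58.7 and 61.5 against 51.5 and 49.4 CPM (0.25 ± 0.06). CCNB1, AURKB and AURKA were higher in both libraries than in either library of the first pair. BIRC5, the survivin subunit of the passenger complex, stood at 122 and 117 against 82.9 and 76.8 CPM (0.58 ± 0.057). The kinesin of cytokinesis KIF20A stood at 131 and 124 against 62.6 and 63.8 CPM (1.01 ± 0.053). Smaller rises were those of PLK1, at 129 and 125 against 93.7 and 95.8 CPM (0.42 ± 0.058), and TOP2A, at 427 and 435 against 322 and 304 CPM (0.46 ± 0.062). For BIRC5, KIF20A, PLK1 and TOP2A the groups did not overlap. MKI67, the source of the Ki-67 antigen, stood at 348 and 351 against 202 and 221 CPM (0.72 ± 0.12). The spindle checkpoint genes ranged from MAD2L1, at 67.4 and 75.3 against 53.2 and 50.2 CPM (0.47 ± 0.068), to BUB1B, at 97.7 and 96.8 against 50.05 and 50.3 CPM (0.95 ± 0.066). Because of this gap each construct is compared with the pair of its own profile, and the other pair is named where it turns a result round. For the other pair the share of all genes called was not counted. Member counts against it describe only how far a result depends on the control.

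**Figure D2:**
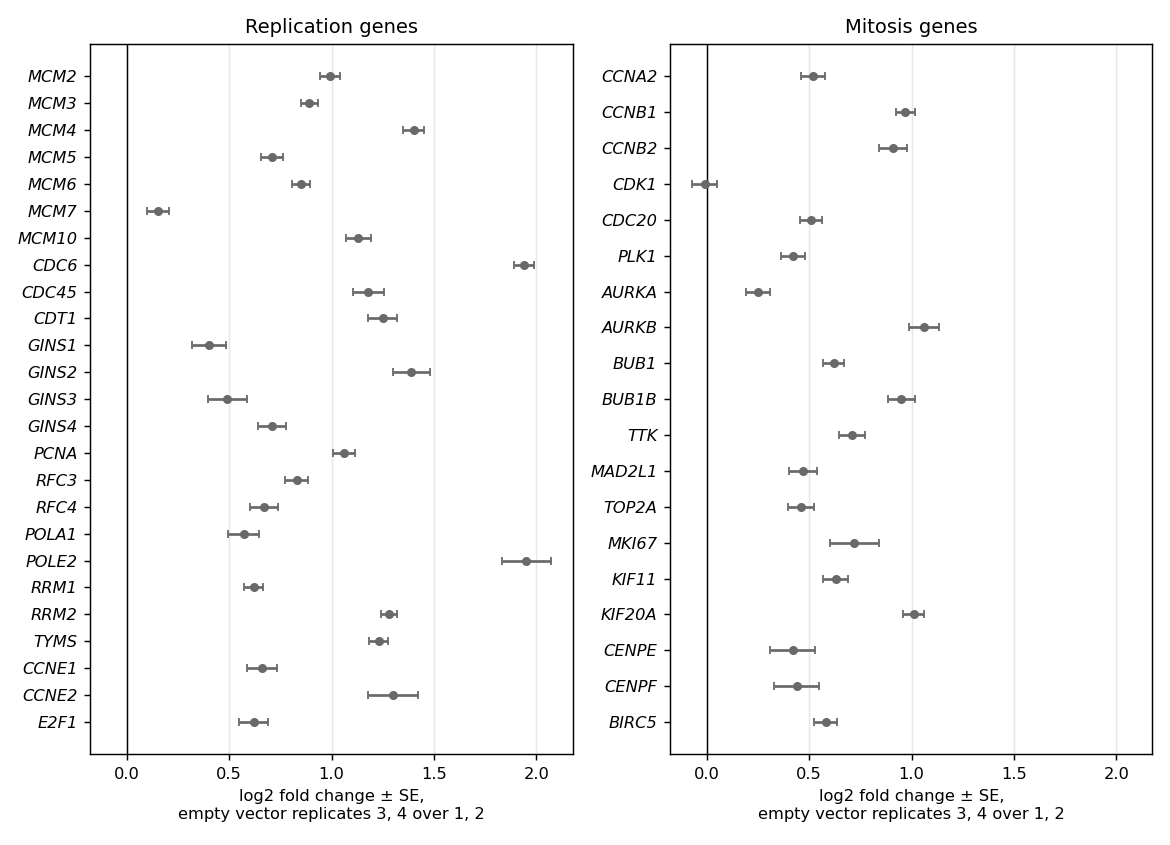
Log2 fold change of each replication gene (left) and mitosis gene (right), second empty vector pair (replicates 3 and 4) over first (replicates 1 and 2), with points for estimates and bars for ± 1 SE of the fit. All 25 replication genes lie above 0, from MCM7 at 0.15 to POLE2 at 1.95, and of the mitosis genes only CDK1, at -0.01, does not.

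Each construct was then compared with the 2 empty vector libraries that share its strand profile. The 4 constructs of the first profile parted: ARID1A WT and DBDmut above the pair, delIDR1 below it, and CBR below it in most mitosis genes. In the second profile ARID1B WT lay below the pair in every member, M2 below it in part, and the DDX4 hybrid close to it or above. Constructs of one profile share their control libraries, so their differences from it are not independent of each other.

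**Figure D3:**
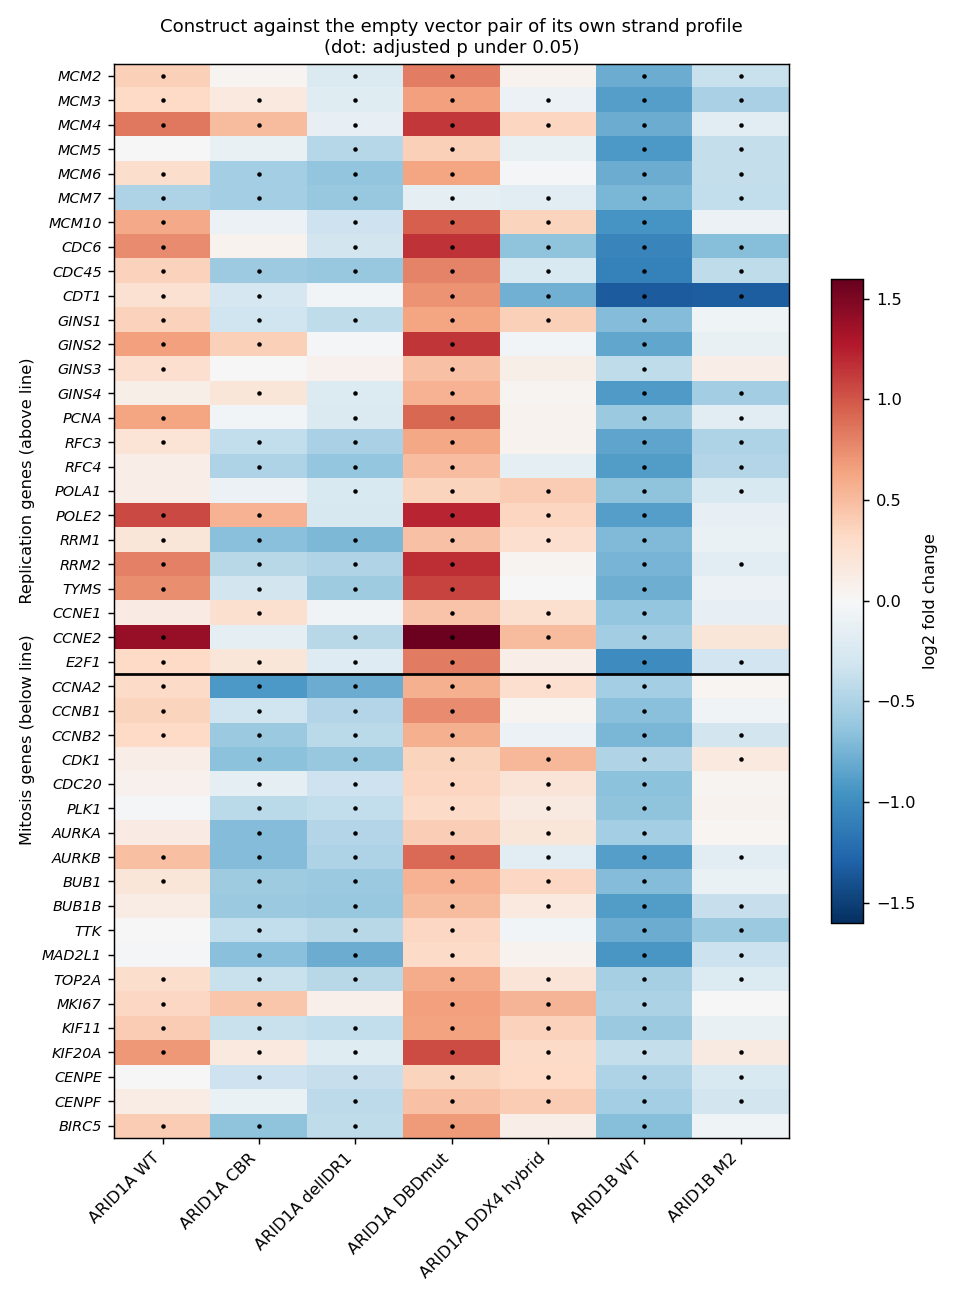
Log2 fold change of each of the 44 genes (rows, replication above the line and mitosis below it) for the 7 constructs over the empty vector libraries that share their strand profile (columns), with a dot where the adjusted p was under 0.05. The DBDmut column is nearly all above 0 and the ARID1B WT column wholly below 0, and MCM7 is the 1 gene lower in DBDmut.

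With ARID1A WT, most replication genes and 10 of 19 mitosis genes rose. Of 25 replication genes 19 were higher and 1 lower, and of 19 mitosis genes 10 were higher and none lower, where 60.7% of all genes were called, 29.9% higher and 30.8% lower. Medians were 0.32 (1.25-fold) for replication and 0.19 (1.14-fold) for mitosis, against -0.03 over all genes. Cyclin E2 led, at 13.9 and 13.96 CPM against 5.26 and 5.35 CPM, and rose by 1.39 ± 0.11 on the log2 scale, 2.62-fold. Its relative cyclin E1, at 18.1 and 18.3 CPM against 17 and 16.3 CPM, differed by 0.13 ± 0.077 (adjusted p = 0.137). E2F1, at 38.5 and 38.1 CPM against 30.9 and 30.4 CPM, rose by 0.32 ± 0.071. Helicase genes split. MCM4, at 118 and 119.9 CPM against 68.6 and 63.9 CPM, rose by 0.84 ± 0.05. MCM2, at 125 and 122 CPM against 97.8 and 91.6 CPM, rose by 0.38 ± 0.049. MCM7, at 268 and 277 CPM against 392 and 380.3 CPM, fell by 0.50 ± 0.055. MCM4 and MCM2 lay above the empty vector libraries and MCM7 lay below them. MCM5, the fellow subunit, did not pass the test (0.00 ± 0.054, adjusted p = 0.963). All but 1 of the 8 origin genes rose, from CDT1, which delivers the MCM ring, at 55.7 and 55.7 CPM against 45.5 and 48.7 CPM (0.24 ± 0.074), to CDC6, at 58.1 and 57.1 CPM against 35.0 and 33.2 CPM (0.75 ± 0.053), and GINS4 differed by 0.09 ± 0.071 (adjusted p = 0.258). POLE2, at 6.97 and 6.37 CPM against 3.31 and 3.10 CPM, rose by 1.05 ± 0.13. In CDT1, CDC6 and POLE2 both libraries lay above the empty vector libraries. PCNA, at 123 and 120.1 CPM against 81.2 and 75.5 CPM, rose by 0.63 ± 0.052. The clamp loader subunit RFC3, at 99.2 and 97.98 CPM against 85.0 and 84.4 CPM, rose by 0.22 ± 0.057.

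Nucleotide genes all rose. RRM2, at 174 and 176 CPM against 101 and 101 CPM, rose by 0.80 ± 0.04. RRM1, at 146 and 144 CPM against 124 and 129 CPM, rose by 0.19 ± 0.046, and thymidylate synthase (TYMS) rose by 0.74 ± 0.046. Among mitosis genes KIF20A was first, at 97.6 and 108 CPM against 62.6 and 63.8 CPM, and rose by 0.70 ± 0.053. RRM2, RRM1 and KIF20A were higher in both libraries than in either of the empty vector libraries. AURKB, at 37.7 and 37.2 CPM against 26.6 and 26.9 CPM, rose by 0.48 ± 0.076. BIRC5, at 108 and 103 CPM against 82.9 and 76.8 CPM, rose by 0.40 ± 0.057. CCNB1, at 194 and 196 CPM against 159 and 146 CPM, rose by 0.36 ± 0.047. For AURKB, BIRC5 and CCNB1 the groups did not overlap. Cyclin A2 (CCNA2), which serves both S phase and mitosis, stood at 67.1 and 70.3 CPM against 56.7 and 55.4 CPM and rose by 0.30 ± 0.058. TOP2A, at 390.4 and 370.0 CPM against 322 and 304 CPM, rose by 0.28 ± 0.062. MKI67, at 259.9 and 273 CPM against 202 and 221 CPM, rose by 0.33 ± 0.12. CCNA2, TOP2A and MKI67 lay above the empty vector libraries in both replicates. The checkpoint kinase BUB1, at 88.2 and 91.0 CPM against 76.4 and 80.2 CPM, rose by 0.19 ± 0.053. The kinases that time entry into mitosis did not pass the test. CDK1, at 106 and 93.1 CPM against 95.3 and 89.0 CPM, differed by 0.11 ± 0.061 (adjusted p = 0.136). PLK1, at 88.6 and 98.4 CPM against 93.7 and 95.8 CPM, differed by -0.02 ± 0.058 (adjusted p = 0.816). AURKA, BUB1B, CDC20, CENPE, CENPF, MAD2L1 and TTK also did not, with differences from -0.03 ± 0.069 in MAD2L1 to 0.13 ± 0.06 in AURKA. Against the second empty vector pair the direction turned, with medians of -0.56 for replication and -0.42 for mitosis. There 0 replication genes were higher and 23 lower, and 0 mitosis genes higher and 17 lower, with no share of all genes counted.

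DBDmut, whose ARID domain is mutated, had both lists higher almost throughout. Of the replication genes 24 were higher and 1 lower, and all 19 mitosis genes were higher, against 30.0% of all genes called higher, 29.1% lower and 59.0% in either direction. Medians were 0.72 (1.64-fold) and 0.55 (1.47-fold), with -0.01 over all genes. At least 2-fold was reached by 7 replication genes and 1 mitosis gene, and the share of all genes that reached it was not counted. CCNE2, at 15.6 and 15.9 CPM against 5.26 and 5.35 CPM, rose by 1.57 ± 0.11. CCNE1, at 21.6 and 23.9 CPM against 17 and 16.3 CPM, rose by 0.45 ± 0.073. CCNE2 and CCNE1 were higher in both libraries than in either of the empty vector libraries. E2F1, at 57.6 and 51.0 CPM against 30.9 and 30.4 CPM, rose by 0.83 ± 0.068. All 3 G1/S regulators rose, cyclin E1 least. MCM4, at 139 and 152 CPM against 68.6 and 63.9 CPM, rose by 1.13 ± 0.049. MCM2, at 173 and 163 CPM against 97.8 and 91.6 CPM, rose by 0.82 ± 0.048. MCM7, at 368 and 333 CPM against 392 and 380.3 CPM, fell by 0.14 ± 0.054, the 1 fall on the list, with both libraries below the pair. MCM4 and MCM2 lay above the empty vector libraries and MCM7 lay below them. The origin genes ran from GINS3, at 17.1 and 18.3 CPM against 12.4 and 13.3 CPM (0.47 ± 0.092), to CDC6, at 78.4 and 74.2 CPM against 35.0 and 33.2 CPM (1.16 ± 0.052). POLE2, at 7.97 and 6.97 CPM against 3.31 and 3.10 CPM, rose by 1.22 ± 0.13. PCNA, at 148 and 149 CPM against 81.2 and 75.5 CPM, rose by 0.92 ± 0.051. For GINS3, CDC6, POLE2 and PCNA the groups did not overlap. POLA1, at 56.8 and 59.3 CPM against 45.1 and 45.9 CPM, rose by 0.35 ± 0.076. RRM2, at 228 and 229 CPM against 101 and 101 CPM, rose by 1.18 ± 0.04, more than RRM1, at 174 and 178 CPM against 124 and 129 CPM, which rose by 0.47 ± 0.045.

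In the mitosis list KIF20A, at 127 and 132 CPM against 62.6 and 63.8 CPM, rose by 1.04 ± 0.052. AURKB, at 53.5 and 47.0 CPM against 26.6 and 26.9 CPM, rose by 0.91 ± 0.073. CCNB1, at 261 and 256 CPM against 159 and 146 CPM, rose by 0.76 ± 0.046. In KIF20A, AURKB and CCNB1 both libraries lay above the empty vector libraries. CDK1, at 114 and 121 CPM against 95.3 and 89.0 CPM, rose by 0.35 ± 0.06. BIRC5, at 133 and 123 CPM against 82.9 and 76.8 CPM, rose by 0.68 ± 0.056. MKI67, at 315 and 352 CPM against 202 and 221 CPM, rose by 0.65 ± 0.12. CDK1, BIRC5 and MKI67 were higher in both libraries than in either of the empty vector libraries. TOP2A, at 459.9 and 478 CPM against 322 and 304 CPM, rose by 0.59 ± 0.062. The rises were smaller in part of the kinetochore and checkpoint genes and in PLK1. BUB1, at 113 and 117 CPM against 76.4 and 80.2 CPM, rose by 0.55 ± 0.052. MAD2L1, at 62.4 and 65.5 CPM against 53.2 and 50.2 CPM, rose by 0.31 ± 0.067. The kinetochore motor CENPE, at 86.7 and 94.7 CPM against 71.2 and 70.7 CPM, rose by 0.35 ± 0.1. For BUB1, MAD2L1 and CENPE the groups did not overlap. PLK1, at 118 and 116 CPM against 93.7 and 95.8 CPM, rose by 0.30 ± 0.057. Against the second pair 3 replication genes were higher and 20 lower, and 1 mitosis gene was higher and 6 lower.

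In CBR, a truncation, most mitosis genes fell, while replication genes were called in both directions at shares nearer to those of all genes. In CBR 16 mitosis genes were lower and 2 higher, and 10 replication genes were lower and 7 higher, where 30.8% of all genes were called lower, 28.7% higher and 59.6% either way. Medians were -0.43 (0.741-fold) for mitosis and -0.09 (0.938-fold) for replication, against -0.01 over all genes. CCNA2 fell most, at 27.8 and 31.6 CPM against 56.7 and 55.4 CPM, by 0.92 ± 0.062. CDK1, at 56.9 and 59.8 CPM against 95.3 and 89.0 CPM, fell by 0.66 ± 0.063. CCNA2 and CDK1 lay below the empty vector libraries in both replicates. CCNB1, at 122 and 121 CPM against 159 and 146 CPM, fell by 0.32 ± 0.047. Both Aurora kinases fell. AURKA, at 30.3 and 32.4 CPM against 51.5 and 49.4 CPM, fell by 0.69 ± 0.062. AURKB, at 16.4 and 16.9 CPM against 26.6 and 26.9 CPM, fell by 0.69 ± 0.083. BIRC5, at 51.5 and 50.7 CPM against 82.9 and 76.8 CPM, fell by 0.64 ± 0.059. AURKA, AURKB and BIRC5 were lower in both libraries than in either of the empty vector libraries. PLK1, at 74.0 and 66.5 CPM against 93.7 and 95.8 CPM, fell by 0.43 ± 0.059. CDC20, which activates the anaphase-promoting complex, at 99.8 and 97.1 CPM against 111 and 108 CPM, fell by 0.16 ± 0.055. In the checkpoint MAD2L1, at 32.4 and 32.7 CPM against 53.2 and 50.2 CPM, fell by 0.67 ± 0.071. For PLK1, CDC20 and MAD2L1 the groups did not overlap. TTK, the kinase that starts checkpoint signalling, at 51.6 and 56.3 CPM against 68.9 and 72.0 CPM, fell by 0.39 ± 0.067. TOP2A, at 238 and 249.5 CPM against 322 and 304 CPM, fell by 0.36 ± 0.062. A pair of mitosis genes went the other way. MKI67, at 283 and 293 CPM against 202 and 221 CPM, rose by 0.44 ± 0.12 and KIF20A rose by 0.16 ± 0.054, and the centromere protein CENPF differed by -0.11 ± 0.11 (adjusted p = 0.393).

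Within the replication list the helicase ring had 2 genes higher and 2 lower. MCM4, at 95.0 and 94.1 CPM against 68.6 and 63.9 CPM, rose by 0.51 ± 0.05, but MCM6 fell by 0.54 ± 0.047. MCM7, at 269.7 and 257 CPM against 392 and 380.3 CPM, fell by 0.55 ± 0.055. MCM2, at 96.5 and 98.3 CPM against 97.8 and 91.6 CPM, differed by 0.04 ± 0.049 (adjusted p = 0.499). MCM4 lay above the empty vector libraries, MCM7 lay below them and MCM2 overlapped them. Of the origin genes CDC45, at 15.4 and 15.7 CPM against 23.4 and 23.0 CPM, fell by 0.58 ± 0.083. GINS2, a member of the complex it joins, at 18.5 and 17.9 CPM against 14.6 and 13.4 CPM, rose by 0.38 ± 0.095. POLE2, at 5.02 and 4.34 CPM against 3.31 and 3.10 CPM, rose by 0.55 ± 0.14. GINS2 and POLE2 lay above the empty vector libraries and CDC45 lay below them. The clamp loader RFC4, at 25.3 and 25.3 CPM against 37.4 and 33.7 CPM, fell by 0.49 ± 0.072. PCNA, at 75.2 and 75.8 CPM against 81.2 and 75.5 CPM, differed by -0.05 ± 0.053 (adjusted p = 0.399). All 3 nucleotide genes fell. RRM1, at 81.0 and 78.5 CPM against 124 and 129 CPM, fell by 0.67 ± 0.047. RRM2, at 71.5 and 75.7 CPM against 101 and 101 CPM, fell by 0.45 ± 0.041. TYMS, at 60.3 and 59.7 CPM against 76.1 and 71.0 CPM, fell by 0.29 ± 0.048. Cyclin E1 and E2F1 were among the genes that rose. CCNE1, at 19.8 and 20.0 CPM against 17 and 16.3 CPM, rose by 0.26 ± 0.074. E2F1, at 35.6 and 34.2 CPM against 30.9 and 30.4 CPM, rose by 0.19 ± 0.071. CCNE2, at 4.44 and 5.13 CPM against 5.26 and 5.35 CPM, differed by -0.15 ± 0.14 (adjusted p = 0.355). Against the second pair all 25 replication genes were lower.

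In delIDR1, a truncation, both lists were lower. It had 20 replication genes and 18 mitosis genes lower and none higher, against 31.1% of all genes called lower, 25.2% higher and 56.3% either way. Medians were -0.30 (0.813-fold) and -0.45 (0.732-fold), against -0.04 over all genes, and no member fell as far as 2-fold. CCNA2, at 33.0 and 31.4 CPM against 56.7 and 55.4 CPM, fell by 0.80 ± 0.061. MAD2L1, at 30.8 and 28.9 CPM against 53.2 and 50.2 CPM, fell by 0.79 ± 0.071. In CCNA2 and MAD2L1 both libraries lay below the empty vector libraries. CDK1, at 60.9 and 59.9 CPM against 95.3 and 89.0 CPM, fell by 0.61 ± 0.062. CCNB1, at 109 and 110.4 CPM against 159 and 146 CPM, fell by 0.47 ± 0.048. CCNB2, a second mitotic cyclin, at 20.2 and 19.1 CPM against 26.8 and 26.2 CPM, fell by 0.43 ± 0.073. The 3 mitotic kinases and CDC20 all fell. AURKB, at 19.4 and 18.8 CPM against 26.6 and 26.9 CPM, fell by 0.49 ± 0.081. PLK1, at 72.2 and 71.7 CPM against 93.7 and 95.8 CPM, fell by 0.40 ± 0.058. CDC20, at 86.8 and 87.4 CPM against 111 and 108 CPM, fell by 0.33 ± 0.055. AURKB, PLK1 and CDC20 were lower in both libraries than in either of the empty vector libraries. TTK, at 53.6 and 49.6 CPM against 68.9 and 72.0 CPM, fell by 0.45 ± 0.067. TOP2A, at 228 and 229 CPM against 322 and 304 CPM, fell by 0.45 ± 0.062. BIRC5, at 60.5 and 59.8 CPM against 82.9 and 76.8 CPM, fell by 0.41 ± 0.058. For TTK, TOP2A and BIRC5 the groups did not overlap. KIF20A, at 53.7 and 57.4 CPM against 62.6 and 63.8 CPM, moved least of the mitosis genes called (-0.19 ± 0.055), and MKI67, at 230.0 and 217 CPM against 202 and 221 CPM, overlapping, differed by 0.08 ± 0.12 (adjusted p = 0.604).

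All nucleotide genes and all helicase ring genes fell on the replication side. RRM1, at 78.0 and 76.3 CPM against 124 and 129 CPM, fell by 0.72 ± 0.047. RRM2, at 71.8 and 72.9 CPM against 101 and 101 CPM, fell by 0.48 ± 0.041. MCM6, at 60.0 and 61.8 CPM against 97.3 and 91.8 CPM, fell by 0.63 ± 0.047. RRM1, RRM2 and MCM6 lay below the empty vector libraries in both replicates. MCM2, at 81.5 and 79.6 CPM against 97.8 and 91.6 CPM, fell by 0.23 ± 0.05. MCM4, at 61.7 and 59.6 CPM against 68.6 and 63.9 CPM, fell by 0.13 ± 0.051. CDC45, which travels with the active helicase, at 16.1 and 14.2 CPM against 23.4 and 23.0 CPM, fell by 0.61 ± 0.083. MCM2, MCM4 and CDC45 were lower in both libraries than in either of the empty vector libraries. GINS4, at 19.4 and 18.1 CPM against 21.8 and 21.9 CPM, fell by 0.22 ± 0.071. RFC4, at 22.4 and 23.9 CPM against 37.4 and 33.7 CPM, fell by 0.62 ± 0.073. The clamp PCNA, at 68.6 and 65.2 CPM against 81.2 and 75.5 CPM, fell by 0.23 ± 0.053. Of the G1/S genes cyclin E1 did not pass the test. E2F1, at 26.4 and 26.4 CPM against 30.9 and 30.4 CPM, fell by 0.21 ± 0.073. CCNE2, at 3.58 and 4.18 CPM against 5.26 and 5.35 CPM, fell by 0.45 ± 0.14. CCNE1, at 15.4 and 16.4 CPM against 17 and 16.3 CPM, differed by -0.06 ± 0.076 (adjusted p = 0.501). E2F1 and CCNE2 lay below the empty vector libraries and CCNE1 overlapped them. CDT1, GINS2, GINS3 and POLE2 also missed the threshold, at -0.05 ± 0.074, -0.03 ± 0.099, 0.07 ± 0.095 and -0.26 ± 0.16. Against the second pair all 25 replication and all 19 mitosis genes were called lower.

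With the DDX4 hybrid, compared with the second pair, 13 of 19 mitosis genes rose, while replication genes were called about as often as all genes. Mitosis genes numbered 13 higher and 1 lower, and replication genes 8 higher and 5 lower, where 26.1% of all genes were called higher, 24.4% lower and 50.5% either way. Medians were 0.21 (1.16-fold) and 0.05 (1.04-fold), against 0.03 over all genes. MKI67, at 519 and 496 CPM against 348 and 351 CPM, rose by 0.54 ± 0.12. CDK1, at 128 and 135 CPM against 94.0 and 88.7 CPM, rose by 0.53 ± 0.06. MKI67 and CDK1 lay above the empty vector libraries in both replicates. BUB1, at 154 and 148 CPM against 122 and 119 CPM, rose by 0.33 ± 0.05. CCNA2, at 97.0 and 97.0 CPM against 80.2 and 80.6 CPM, rose by 0.27 ± 0.056. CDC20, at 180.4 and 182 CPM against 158 and 155 CPM, rose by 0.21 ± 0.053. BUB1, CCNA2 and CDC20 were higher in both libraries than in either of the empty vector libraries. PLK1, at 137 and 142 CPM against 129 and 125 CPM, rose by 0.14 ± 0.056. The B-type cyclins did not pass the test. CCNB1, at 303 and 310.1 CPM against 301 and 297 CPM, differed by 0.04 ± 0.045 (adjusted p = 0.525). BIRC5, at 126 and 129.7 CPM against 122 and 117 CPM, differed by 0.10 ± 0.055 (adjusted p = 0.14). TOP2A, at 508 and 491 CPM against 427 and 435 CPM, rose by 0.21 ± 0.061. For CCNB1, BIRC5 and TOP2A the groups did not overlap. BUB1B, at 113 and 105 CPM against 97.7 and 96.8 CPM, rose by 0.16 ± 0.062. AURKB, at 49.8 and 49.3 CPM against 56.6 and 54.9 CPM, fell by 0.17 ± 0.068, the single mitosis gene called lower, and it rose by 0.89 against the first pair.

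The licensing factors CDT1 and CDC6 fell most. CDT1, at 63.6 and 67.8 CPM against 110.5 and 113 CPM, fell by 0.77 ± 0.068 and CDC6 fell by 0.65 ± 0.047, from 131 and 132 to 84.8 and 82.1 CPM. GINS1, at 43.2 and 42.2 CPM against 33.0 and 32.8 CPM, rose by 0.38 ± 0.076. MCM4, at 222 and 221 CPM against 175 and 175 CPM, rose by 0.34 ± 0.046. GINS1 and MCM4 lay above the empty vector libraries and CDT1 lay below them. MCM7, at 378 and 381 CPM against 408 and 451 CPM, fell by 0.18 ± 0.054. MCM2, at 189.7 and 199 CPM against 186 and 189 CPM, differed by 0.05 ± 0.047 (adjusted p = 0.388). POLA1, at 90.9 and 89.2 CPM against 65.2 and 70.1 CPM, rose by 0.41 ± 0.072. MCM2 and POLA1 lay above the empty vector libraries and MCM7 lay below them. POLE2, at 15.3 and 15.9 CPM against 13.2 and 11.7 CPM, rose by 0.34 ± 0.089. PCNA, at 172 and 171 CPM against 159 and 168 CPM, differed by 0.06 ± 0.049 (adjusted p = 0.315). Both cyclins E rose and E2F1 did not pass the test. CCNE2, at 17.9 and 19.1 CPM against 13.2 and 13.0 CPM, rose by 0.50 ± 0.093. CCNE1, at 30.7 and 32.1 CPM against 26.4 and 26.1 CPM, rose by 0.26 ± 0.067. E2F1, at 50.3 and 50.5 CPM against 47.1 and 47.0 CPM, differed by 0.10 ± 0.066 (adjusted p = 0.227). In CCNE2, CCNE1 and E2F1 both libraries lay above the empty vector libraries. RRM1, at 238 and 233 CPM against 200 and 189.8 CPM, rose by 0.27 ± 0.044. RRM2, at 252 and 250.1 CPM against 243 and 245 CPM, differed by 0.04 ± 0.038 (adjusted p = 0.408). Against the first pair 24 replication genes were higher and 0 lower.

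With ARID1B WT every member was lower. All 25 replication and all 19 mitosis genes were called lower, against 28.5% of all genes called lower, 23.6% higher and 52.0% either way. The median was -0.79 (0.578-fold) for replication and -0.64 (0.643-fold) for mitosis, with -0.04 over all genes. Of the replication genes 4 fell by at least 2-fold, and the share of all genes that did was not counted. CDT1, at 46.0 and 43.3 CPM against 110.5 and 113 CPM, fell by 1.33 ± 0.072, CDC45 fell by 1.08 ± 0.075 and CDC6 fell by 1.06 ± 0.049, so genes that load and start the helicase led the list. This order rests on the second pair. In the first pair CDT1 stood at 45.5 and 48.7 CPM. CDC6 stood at 35.0 and 33.2 CPM there, below its 61.8 and 64.2 CPM in ARID1B WT. GINS3, at 14.9 and 12.5 CPM against 17.7 and 18.3 CPM, fell least of the origin genes (-0.41 ± 0.096). For CDT1 and GINS3 the groups did not overlap. E2F1, at 23.9 and 22.9 CPM against 47.1 and 47.0 CPM, fell by 1.01 ± 0.074. CCNE1, at 17.1 and 16.99 CPM against 26.4 and 26.1 CPM, fell by 0.62 ± 0.075. CCNE2, at 9.40 and 8.45 CPM against 13.2 and 13.0 CPM, fell by 0.56 ± 0.11. In E2F1, CCNE1 and CCNE2 both libraries lay below the empty vector libraries. The helicase ring fell within a narrow range, from MCM7, at 260.0 and 258 CPM against 408 and 451 CPM (-0.73 ± 0.055), to MCM5, at 69.1 and 69.4 CPM against 130.3 and 131 CPM (-0.92 ± 0.054), with MCM2 at 108 and 110.0 CPM against 186 and 189 CPM (-0.79 ± 0.048). RFC4, at 31.4 and 29.8 CPM against 55.8 and 57.6 CPM, fell by 0.89 ± 0.071. PCNA, at 110.1 and 107 CPM against 159 and 168 CPM, fell by 0.60 ± 0.051. MCM7, MCM5, MCM2, RFC4 and PCNA were lower in both libraries than in either of the empty vector libraries. The nucleotide genes also fell within a narrow range, from RRM1, at 118 and 119.6 CPM against 200 and 189.8 CPM (-0.71 ± 0.046), through RRM2, at 148 and 144 CPM against 243 and 245 CPM (-0.74 ± 0.039), to TYMS, at 101 and 99.9 CPM against 173 and 172 CPM (-0.78 ± 0.045).

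In the mitosis list the checkpoint genes led. MAD2L1, at 40.0 and 35.1 CPM against 67.4 and 75.3 CPM, fell by 0.93 ± 0.07 and BUB1B fell by 0.90 ± 0.066, with BUB1, at 75.8 and 72.9 CPM against 122 and 119 CPM, the least of the checkpoint genes (-0.69 ± 0.053). AURKB, at 28.5 and 31.9 CPM against 56.6 and 54.9 CPM, fell by 0.88 ± 0.074. PLK1, at 81.0 and 81.9 CPM against 129 and 125 CPM, fell by 0.64 ± 0.059. For MAD2L1, BUB1, AURKB and PLK1 the groups did not overlap. AURKA, at 40.2 and 42.2 CPM against 58.7 and 61.5 CPM, fell by 0.54 ± 0.062. The cyclins and their kinase fell as well. CCNB2, at 30.5 and 29.7 CPM against 52.9 and 47.1 CPM, fell by 0.73 ± 0.068. CCNB1, at 188 and 188 CPM against 301 and 297 CPM, fell by 0.67 ± 0.046. CDK1, at 67.6 and 63.2 CPM against 94.0 and 88.7 CPM, fell by 0.48 ± 0.064. Chromosome, passenger and motor genes followed, KIF20A least of the list. BIRC5, at 72.9 and 75.9 CPM against 122 and 117 CPM, fell by 0.68 ± 0.057. TOP2A, at 299 and 299.9 CPM against 427 and 435 CPM, fell by 0.53 ± 0.062. MKI67, at 229.9 and 261 CPM against 348 and 351 CPM, fell by 0.51 ± 0.12. BIRC5, TOP2A and MKI67 lay below the empty vector libraries in both replicates. KIF20A, at 97.97 and 98.4 CPM against 131 and 124 CPM, fell by 0.38 ± 0.052. The result rests on the second pair: against the first, 10 replication genes were higher and 6 lower, and 3 mitosis genes higher and 5 lower.

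In M2, the ARID1B deletion, most replication genes were lower, while mitosis genes were called in either direction about as often as all genes. Of the replication genes 16 were lower and none higher, and of the mitosis genes 8 were lower and 2 higher, where 27.7% of all genes were called lower, 25.4% higher and 53.1% either way. Medians were -0.25 (0.84-fold) and -0.11 (0.926-fold), against -0.02 over all genes. CDT1, at 44.95 and 44.5 CPM against 110.5 and 113 CPM, fell by 1.32 ± 0.071, and was the 1 member past 2-fold. CDC6 fell by 0.68 ± 0.047. CDC45, at 39.8 and 39.7 CPM against 53.6 and 51.8 CPM, fell by 0.41 ± 0.069, and GINS1, GINS2 and GINS3 did not pass the test, at -0.07 ± 0.079, -0.12 ± 0.079 and 0.11 ± 0.089. All 6 ring subunits fell. They ran from MCM4, at 157 and 152 CPM against 175 and 175 CPM (-0.18 ± 0.047), to MCM3, at 207 and 204 CPM against 299 and 291 CPM (-0.52 ± 0.041), with MCM2 at 149 and 144 CPM against 186 and 189 CPM (-0.36 ± 0.047). RFC3, at 111 and 102 CPM against 149.9 and 150.4 CPM, fell by 0.49 ± 0.055. PCNA, at 143 and 148 CPM against 159 and 168 CPM, fell by 0.17 ± 0.05. MCM4, MCM3, MCM2, RFC3 and PCNA were lower in both libraries than in either of the empty vector libraries. RRM2, at 216 and 217 CPM against 243 and 245 CPM, fell by 0.17 ± 0.038. Of the G1/S regulators only E2F1 passed the test. E2F1, at 37.5 and 38.2 CPM against 47.1 and 47.0 CPM, fell by 0.31 ± 0.068. CCNE1, at 23.5 and 24.6 CPM against 26.4 and 26.1 CPM, differed by -0.13 ± 0.07 (adjusted p = 0.123). CCNE2, at 16.1 and 13.8 CPM against 13.2 and 13.0 CPM, differed by 0.19 ± 0.097 (adjusted p = 0.0954).

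Of the mitosis genes TTK, at 77.9 and 74.2 CPM against 119.5 and 111 CPM, fell by 0.60 ± 0.064. MAD2L1, at 55.9 and 56.7 CPM against 67.4 and 75.3 CPM, fell by 0.34 ± 0.067, so the checkpoint held the largest falls. Genes of the other mitosis groups fell as well. CCNB2, at 40.2 and 40.7 CPM against 52.9 and 47.1 CPM, fell by 0.30 ± 0.064. CENPF, at 232 and 232 CPM against 274 and 296 CPM, fell by 0.30 ± 0.11. TOP2A, at 371 and 369 CPM against 427 and 435 CPM, fell by 0.22 ± 0.062. For CCNB2, CENPF and TOP2A the groups did not overlap. AURKB, at 50.3 and 48.8 CPM against 56.6 and 54.9 CPM, fell by 0.17 ± 0.069. CDK1, at 103 and 101 CPM against 94.0 and 88.7 CPM, rose by 0.16 ± 0.061. KIF20A, at 142 and 139 CPM against 131 and 124 CPM, rose by 0.14 ± 0.05. These were the 2 mitosis genes that rose. CCNB1, PLK1, MKI67 and BIRC5 did not pass the test. CCNB1 stood at 277 and 295 CPM against 301 and 297 CPM, PLK1 at 129.7 and 132 CPM against 129 and 125 CPM, MKI67 at 355 and 350.2 CPM against 348 and 351 CPM and BIRC5 at 114 and 114 CPM against 122 and 117 CPM, with differences of -0.06 ± 0.046, 0.05 ± 0.056, 0.01 ± 0.12 and -0.07 ± 0.055. The mitosis count fell from 8 to 5 without M2 replicate 1, without M2 replicate 2 or without empty vector replicate 4. Against the first pair 22 replication genes were higher and 1 lower, and 15 mitosis genes higher and none lower.

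Mutants were also compared with the wild-type construct of the same profile, which uses no empty vector library. These comparisons share the wild-type libraries with those above, so their values are set side by side with no claim that they are independent.

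**Figure D4:**
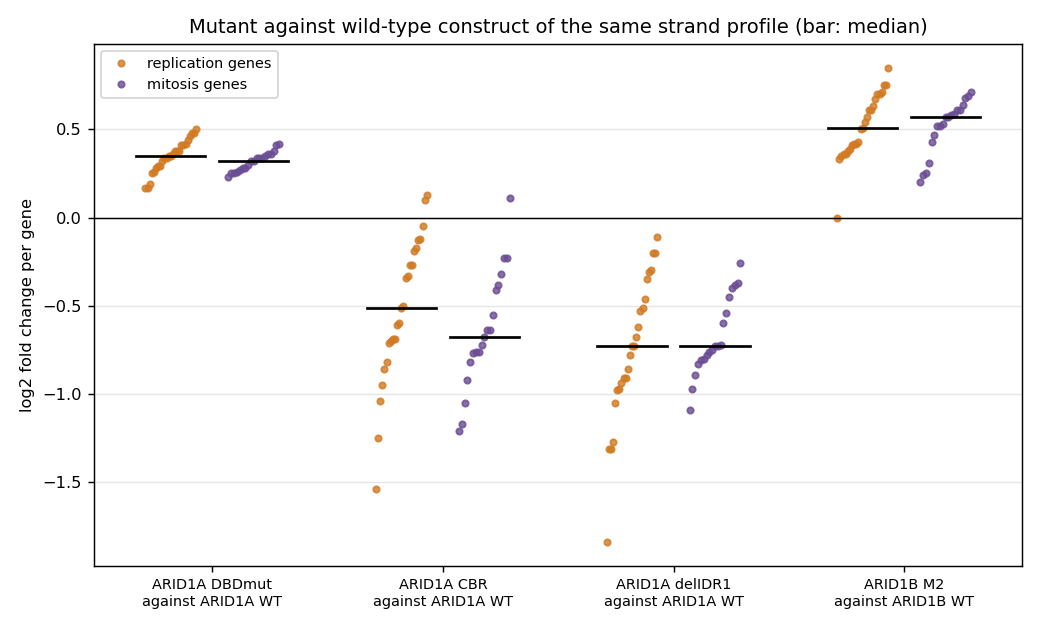
Log2 fold change of each gene for 4 mutants against the wild-type construct of the same strand profile, with points for genes (replication and mitosis apart) and bars for medians. DBDmut lies narrowly above 0 (medians 0.35 and 0.32), M2 above it (0.51 and 0.57), and CBR (-0.51 and -0.68) and delIDR1 (-0.73 and -0.73) below.

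DBDmut exceeded ARID1A WT in 22 replication genes and 18 mitosis genes and was lower in none, where 8.33% of all genes were called higher, 10.7% lower and 19.1% either way. Differences over the whole list spanned a narrow range, from 0.17 in POLE2 to 0.50 in E2F1 for replication, and from 0.23 in the spindle motor KIF11 to 0.42 in AURKB for mitosis, with 0.01 over all genes. E2F1 stood at 57.6 and 51.0 CPM against 38.5 and 38.1 CPM (0.50 ± 0.067). CDT1 stood at 80.2 and 74.7 CPM against 55.7 and 55.7 CPM (0.48 ± 0.071). E2F1 and CDT1 were higher in both libraries than in either of the libraries compared with them. MCM2 stood at 173 and 163 CPM against 125 and 122 CPM (0.44 ± 0.048). RRM2 stood at 228 and 229 CPM against 174 and 176 CPM (0.38 ± 0.039). PCNA stood at 148 and 149 CPM against 123 and 120.1 CPM (0.29 ± 0.05). For MCM2, RRM2 and PCNA the groups did not overlap. MCM7, lower in both constructs than in the empty vector, was higher in DBDmut than in ARID1A WT (0.36 ± 0.055). AURKB stood at 53.5 and 47.0 CPM against 37.7 and 37.2 CPM (0.42 ± 0.071). CCNB1 stood at 261 and 256 CPM against 194 and 196 CPM (0.41 ± 0.046). AURKB and CCNB1 lay above the libraries compared with them in both replicates. KIF11 stood at 221 and 225 CPM against 197 and 183 CPM (0.23 ± 0.06). CCNE2, POLE2, GINS3 and MKI67 missed the threshold, at 0.17 ± 0.094, 0.17 ± 0.11, 0.19 ± 0.091 and 0.32 ± 0.12 (adjusted p = 0.222, 0.372, 0.151 and 0.0543). The SE of MKI67 also holds the spread of the AQGscram replicates, which are not part of this comparison.

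CBR lay below ARID1A WT in 20 replication and 17 mitosis genes and above it in none, where 33.1% of all genes were called lower, 29.4% higher and 62.5% either way. Cyclin E2 and RRM2, the small subunit of ribonucleotide reductase, had the largest gaps. The first was CCNE2, at 4.44 and 5.13 CPM against 13.9 and 13.96 CPM (-1.54 ± 0.12), followed by RRM2, at 71.5 and 75.7 CPM against 174 and 176 CPM (-1.25 ± 0.041). CCNA2 stood at 27.8 and 31.6 CPM against 67.1 and 70.3 CPM (-1.21 ± 0.062). AURKB stood at 16.4 and 16.9 CPM against 37.7 and 37.2 CPM (-1.17 ± 0.081). In CCNE2, RRM2, CCNA2 and AURKB both libraries lay below the libraries compared with them. BIRC5 stood at 51.5 and 50.7 CPM against 108 and 103 CPM (-1.05 ± 0.059). E2F1, cyclin E1 and Ki-67 did not pass the test. E2F1, at 35.6 and 34.2 CPM against 38.5 and 38.1 CPM, differed by -0.13 ± 0.07 (adjusted p = 0.103). CCNE1, at 19.8 and 20.0 CPM against 18.1 and 18.3 CPM, differed by 0.13 ± 0.075 (adjusted p = 0.147). MKI67, at 283 and 293 CPM against 259.9 and 273 CPM, differed by 0.11 ± 0.12 (adjusted p = 0.427).

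delIDR1 lay below ARID1A WT in 23 replication and 18 mitosis genes and above it in none, with 32.2% of all genes called lower, 25.5% higher and 57.8% either way. Again CCNE2 had the largest gap, at 3.58 and 4.18 CPM against 13.9 and 13.96 CPM (-1.84 ± 0.12). TYMS stood at 50.1 and 49.0 CPM against 124 and 122 CPM (-1.31 ± 0.047). CCNE2 and TYMS were lower in both libraries than in either of the libraries compared with them. POLE2 stood at 3.01 and 2.34 CPM against 6.97 and 6.37 CPM (-1.31 ± 0.14). CDC6 stood at 28.2 and 27.3 CPM against 58.1 and 57.1 CPM (-1.05 ± 0.054). In delIDR1 E2F1 was lower too, at 26.4 and 26.4 CPM against 38.5 and 38.1 CPM (-0.53 ± 0.072), as were CCNE1 (-0.20 ± 0.077) and CDK1 (-0.72 ± 0.063), while MCM7, GINS3 and MKI67 missed the threshold (-0.11 ± 0.055, -0.20 ± 0.094 and -0.26 ± 0.12).

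M2 exceeded ARID1B WT in 24 replication and 17 mitosis genes and was lower in none, where 19.1% of all genes were called higher, 15.3% lower and 34.4% either way. The exception on the replication side was CDT1, at 44.95 and 44.5 CPM against 46.0 and 43.3 CPM, with a difference of 0.00 ± 0.075 (adjusted p = 0.979). Both ARID1B constructs had CDT1 at 0.4 (M2) and 0.399 (ARID1B WT) of the level in the second pair. MCM10, which helps to open the loaded helicase, differed most, at 51.1 and 53.3 CPM against 28.5 and 29.4 CPM (0.85 ± 0.06). MCM10 lay above the libraries compared with them and CDT1 overlapped them. E2F1 stood at 37.5 and 38.2 CPM against 23.9 and 22.9 CPM (0.70 ± 0.073). CCNE2 stood at 16.1 and 13.8 CPM against 9.40 and 8.45 CPM (0.75 ± 0.1). POLE2 stood at 11.8 and 10.8 CPM against 6.92 and 6.51 CPM (0.75 ± 0.1). E2F1, CCNE2 and POLE2 were higher in both libraries than in either of the libraries compared with them. TYMS stood at 160.4 and 165 CPM against 101 and 99.9 CPM (0.70 ± 0.045). RRM2 stood at 216 and 217 CPM against 148 and 144 CPM (0.57 ± 0.039). Mitotic kinases and their activators were higher too. AURKB stood at 50.3 and 48.8 CPM against 28.5 and 31.9 CPM (0.71 ± 0.072). CDC20 stood at 159.7 and 161 CPM against 97.7 and 101 CPM (0.69 ± 0.054). PLK1 stood at 129.7 and 132 CPM against 81.0 and 81.9 CPM (0.68 ± 0.057). For AURKB, CDC20 and PLK1 the groups did not overlap. CDK1 stood at 103 and 101 CPM against 67.6 and 63.2 CPM (0.64 ± 0.062). TTK, at 77.9 and 74.2 CPM against 67.7 and 65.3 CPM, was the least of those called (0.20 ± 0.066), and CENPE and CENPF missed the threshold (0.25 ± 0.11 and 0.24 ± 0.11). ARID1B itself was higher in M2 than in ARID1B WT, at the levels given above, and its part in these differences was not tested.

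The wild-type paralogs were in different profiles, so their responses were compared as a difference of own-pair differences in the same fit. The ARID1B WT response lay below the ARID1A WT response in all 25 replication and all 19 mitosis genes, where 22.9% of all genes were called lower, 18.7% higher and 41.6% either way. The median gap was -1.20 for replication and -0.84 for mitosis, against -0.01 over all genes. CCNE2 (-1.95 ± 0.16), POLE2 (-1.93 ± 0.17), CDC6 (-1.81 ± 0.072) and MCM4 (-1.64 ± 0.07) had the largest gaps, AURKB (-1.37 ± 0.11) led the mitosis genes, and MCM7 (-0.23 ± 0.077) had the smallest. The gap between the empty vector pairs enters each of these values in full, with its sign reversed: for CDC6 it was 1.94 ± 0.051 and for CCNE2 1.30 ± 0.12. Levels side by side, without that term, are as follows. CDC6 stood at 58.1 and 57.1 CPM in ARID1A WT and 61.8 and 64.2 CPM in ARID1B WT, and CCNE2 at 13.9 and 13.96 and 9.40 and 8.45 CPM. The DDX4 hybrid response lay below the ARID1A WT response in 15 replication genes and above it in 2, and below it in 5 mitosis genes and above it in 1, with 25.2% of all genes called lower, 25.3% higher and 50.5% either way. Of the mitosis genes 26.3% were called lower, near the share of all genes, and 5.26% higher. CDC6 (-1.41 ± 0.071), CDT1 (-1.01 ± 0.1) and CCNE2 (-0.89 ± 0.15) were lowest, and CDK1 (0.42 ± 0.086), MCM7 (0.32 ± 0.077) and POLA1 (0.31 ± 0.11) were the 3 genes higher. MKI67 (0.21 ± 0.16), PLK1 (0.16 ± 0.081), TOP2A (-0.07 ± 0.087) and E2F1 (-0.22 ± 0.097) did not pass the test.

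The third profile has no empty vector library, so its 5 constructs were described against each pair in turn with no call. Against the first pair all 44 genes were higher in every construct, with replication medians from 0.85 in A457_G461del to 1.28 in Block9del and mitosis medians from 0.59 in the libraries labelled AQGscram to 0.97 in Block9del. Against the second pair the same libraries had smaller medians, with replication medians from 0.07 in 42YS to 0.41 in Block9del and mitosis medians from 0.02 to 0.34. CDT1 was the lowest member against the second pair in all constructs of this profile but 42YS, where CDC6 (-0.44) lay below it. Its log2 difference was -1.11 in A457_G461del, -0.78 in Block13del, -0.68 in Block9del, -0.47 in AQGscram and -0.35 in 42YS. In the ARID1B constructs, in that order, CDT1 stood at 52.9 and 50.7, 62.7 and 67.5 and 67.6 and 72.1 CPM. In the ARID1A constructs of this profile it stood at 72.4 and 88.7 CPM (AQGscram) and 87.4 and 87.7 CPM (42YS). CCNE2 was the highest replication gene against the second pair in all 5, from 0.49 in 42YS to 0.92 in Block13del and 0.92 in Block9del. CDK1 showed 0.49 in 42YS, 0.45 in AQGscram, 0.59 in A457_G461del, 0.72 in Block13del and 0.70 in Block9del.

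**Figure D5:**
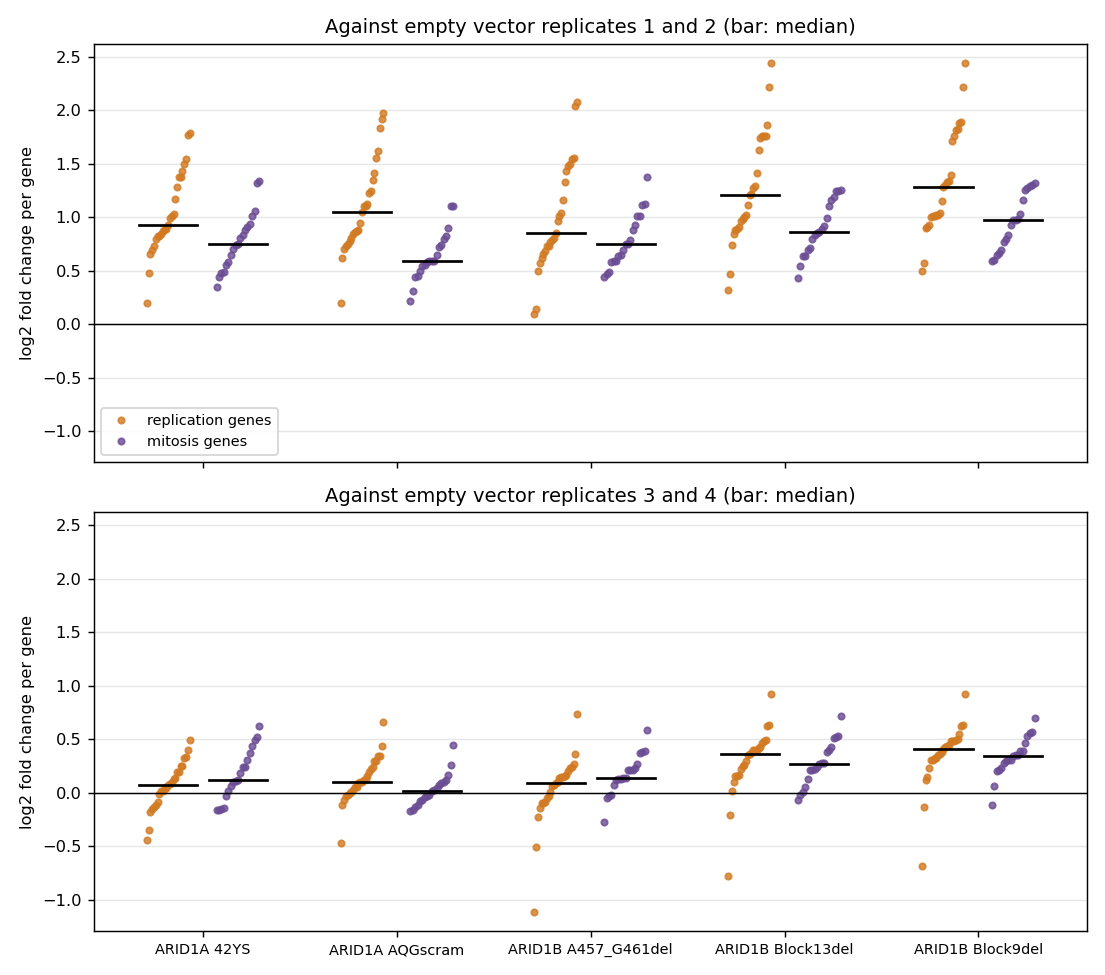
Log2 fold change of each gene for the 5 constructs of the third strand profile against empty vector replicates 1 and 2 (top) and 3 and 4 (bottom), with points for genes (replication and mitosis apart) and bars for medians. Every point lies above 0 in the top panel, and in the bottom panel the medians lie between 0.02 and 0.41, with CDT1 in A457_G461del lowest at -1.11.

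Within this profile constructs could be tested against each other. A457_G461del lay below Block9del in 24 replication genes and 9 mitosis genes and above it in none, with 15.2% of all genes called lower, 16.4% higher and 31.6% either way, and medians of -0.34 and -0.16. RFC3 stood at 141 and 141 CPM against 207 and 204 CPM (-0.54 ± 0.053). MAD2L1 stood at 74.2 and 81.1 CPM against 111 and 99.9 CPM (-0.44 ± 0.062). For RFC3 and MAD2L1 the groups did not overlap. MCM10 stood at 65.7 and 63.1 CPM against 84.7 and 88.5 CPM (-0.43 ± 0.052). E2F1, at 47.4 and 50.6 CPM against 58.0 and 58.4 CPM, fell by 0.25 ± 0.063. RRM2, at 296 and 294 CPM against 359.8 and 352 CPM, fell by 0.27 ± 0.038. MCM10, E2F1 and RRM2 lay below the libraries compared with them in both replicates. CDK1, at 134 and 141 CPM against 149.8 and 147 CPM, differed by -0.11 ± 0.058 (adjusted p = 0.178). Below Block13del it lay in 23 replication and 4 mitosis genes, with 9.82% of all genes called lower, 10.2% higher and 20.0% either way, and medians of -0.25 and -0.09. RFC3 again led, at 141 and 141 CPM against 206 and 190.2 CPM (-0.49 ± 0.054), and MAD2L1, at 74.2 and 81.1 CPM against 104 and 102 CPM, fell by 0.41 ± 0.063. The replication count was 15 to 18 when any 1 of the 4 libraries was left out, lowest without A457_G461del replicate 2. The mitosis counts went down to 2 against Block13del, without A457_G461del replicate 1 or Block13del replicate 1, and to 4 and 5 against Block9del, without Block9del replicate 1 and A457_G461del replicate 1. Block13del and Block9del differed in 0 replication genes by edgeR, although 4 had an unadjusted p under 0.05 (DESeq2 called 0 and edgeR without the filter 1), and in 1 mitosis gene, PLK1, at 121 and 134 CPM against 148 and 149 CPM (-0.22 ± 0.055, adjusted p = 0.0464), where 0.0703% of all genes were called lower, 1.18% higher and 1.25% either way. PLK1 lost its call without Block13del replicate 1 or either Block9del replicate. These 3 constructs also differed in ARID1B level, as given above, and its part was not tested.

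42YS was compared with the libraries labelled AQGscram, whose replicates stood apart from each other. By the test across all groups 9 mitosis genes were higher and 2 lower, and 3 replication genes were higher and 6 lower, with 19.3% of all genes called higher, 18.8% lower and 38.1% either way. Taken in either direction, replication genes were thus called about as often as all genes. MKI67 stood at 538 and 538 CPM against 409 and 255 CPM (0.70 ± 0.12), with the AQGscram replicates far apart. CENPF stood at 391 and 384 CPM against 368 and 244 CPM and CENPE at 138 and 134 CPM against 114 and 80.1 CPM, with the same spread between the AQGscram replicates. In MKI67, CENPF and CENPE both libraries lay above the libraries compared with them. AURKA, at 72.3 and 69.5 CPM against 55.8 and 61.2 CPM, rose by 0.28 ± 0.057. TTK, at 128 and 119 CPM against 109 and 98.2 CPM, rose by 0.26 ± 0.062. CDC6, at 98.3 and 95.3 CPM against 122 and 121 CPM, fell by 0.33 ± 0.046. AURKA and TTK lay above the libraries compared with them and CDC6 lay below them. MCM2, at 169 and 170.2 CPM against 204 and 208 CPM, fell by 0.28 ± 0.046. RRM2, at 263 and 259.9 CPM against 313 and 305 CPM, fell by 0.24 ± 0.038. In CDC6, MCM2 and RRM2 both 42YS libraries lay below both AQGscram libraries. RFC3, at 176 and 166 CPM against 149 and 137 CPM, rose by 0.26 ± 0.054. CDK1, at 129 and 127 CPM against 128 and 122 CPM, differed by 0.03 ± 0.058 (adjusted p = 0.68). Fitted on these 4 libraries alone, no member of either list was called. Without 42YS replicate 1 the counts were 3 replication genes lower and 5 mitosis genes higher, and without AQGscram replicate 1 they were 8 and 10.

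Other genes of the pathway were read from lists that hold none of the members. These lists too were written with earlier results of these data known, so their counts are no independent support. Of 41 further replication genes (origin recognition, polymerases, fork protection, chromatin assembly) ARID1A WT had 25 higher and 7 lower, DBDmut 31 and 5, CBR 10 and 15, delIDR1 2 and 24, the DDX4 hybrid 15 and 7, ARID1B WT 1 and 39, and M2 1 and 23, each against its own pair. Across these comparisons 23.6 to 30.0% of all genes were called higher and 24.4 to 31.1% lower, and the 24.4% higher and 36.6% lower of this list in CBR lay near the 28.7% and 30.8% of all genes there. Claspin (CLSPN), which relays fork stress, led the rises in ARID1A WT (0.95 ± 0.089), DBDmut (1.27 ± 0.086), CBR (0.48 ± 0.091) and the DDX4 hybrid (0.76 ± 0.078). ORC1, the large subunit of the origin recognition complex, led the falls with ARID1B WT, at 23.1 and 24.7 CPM against 53.6 and 55.3 CPM (-1.19 ± 0.066), and had the largest gap of its list between the empty vector pairs (1.70 ± 0.068). ORC5, a subunit of that complex, fell in ARID1A WT (-0.64 ± 0.066), DBDmut (-0.76 ± 0.066), where most of the list rose, and in delIDR1 (-0.87 ± 0.066), where most fell. The primase subunit PRIM1 led the falls in CBR (-0.88 ± 0.11) and M2 (-0.74 ± 0.08). Of 44 further mitosis genes the counts higher and lower were 28 and 4 in ARID1A WT, 39 and 1 in DBDmut, 3 and 30 in CBR, 0 and 37 in delIDR1, 21 and 3 in the DDX4 hybrid, 1 and 42 in ARID1B WT, and 4 and 22 in M2. The kinetochore subunit SPC24 led the rises in ARID1A WT (2.02 ± 0.17), DBDmut (2.12 ± 0.17) and CBR (0.79 ± 0.2), and the cytokinesis gene ANLN led those in the DDX4 hybrid (0.75 ± 0.058) and M2 (0.75 ± 0.059). The cohesin regulator CDCA5 fell most with ARID1B WT (-1.02 ± 0.058) and M2 (-0.59 ± 0.056), HMMR with CBR (-0.92 ± 0.077) and CDC25C, a phosphatase that activates CDK1, with delIDR1 (-0.78 ± 0.067). Between the empty vector pairs 36 of the 41 and 41 of the 44 were higher in the second.

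Regulators above the programme did not all move with it. CDKN1A encodes an inhibitor, so a move of CDKN1A against the members is not discordant, and its part was not tested. CDKN1A, the p21 inhibitor, stood at 84.4 and 85.7 CPM in the first empty vector pair and 11.1 and 9.76 CPM in the second (-3.03 ± 0.077), against the direction of the members. With ARID1B WT it stood at 112 and 113 CPM (3.44 ± 0.076) and with M2 at 128 and 129 CPM (3.63 ± 0.075), M2 being the higher of the pair (0.19 ± 0.056) while its replication genes were higher too. In the DDX4 hybrid it stood at 47.0 and 50.2 CPM (2.22 ± 0.079). In the first profile it rose with ARID1A WT, to 128 and 139 CPM (0.65 ± 0.057), and with DBDmut (0.23 ± 0.057), where the members also rose, fell with CBR (-0.44 ± 0.059), and in delIDR1 differed by 0.13 ± 0.057 (adjusted p = 0.0501). Cyclin D1 (CCND1), the G1 cyclin, had the largest rise of its list in ARID1A WT, from 2.13 and 1.80 to 47.6 and 46.0 CPM (4.57 ± 0.11), and in ARID1B WT, from 2.09 and 1.39 to 34.1 and 36.2 CPM (4.35 ± 0.13), where the members fell. It also led in M2 (3.77 ± 0.13) and DBDmut (1.79 ± 0.15), and in delIDR1 it rose (1.12 ± 0.16) about as much as the inhibitor CDKN1C (1.12 ± 0.13). MYBL2, which encodes B-MYB, went with most members in ARID1A WT, DBDmut and ARID1B WT, and against them in M2. It stood at 111 and 110.3 CPM against 60.5 and 59.3 CPM in ARID1A WT (0.89 ± 0.06), at 134 and 131 CPM in DBDmut (1.15 ± 0.059), at 77.5 and 79.0 CPM against 129 and 132 CPM in ARID1B WT (-0.74 ± 0.059), and at 179 and 174 CPM in M2 (0.44 ± 0.056). FOXM1, the factor of the G2 programme, fell with ARID1B WT, at 86.2 and 90.05 CPM against 137 and 138 CPM (-0.64 ± 0.046), rose in the DDX4 hybrid (0.31 ± 0.044), and in ARID1A WT differed by -0.09 ± 0.046 (adjusted p = 0.101). MYBL2 and FOXM1 are not given here for CBR and delIDR1, where most mitosis genes fell, so this account of them is not complete. The list of 14 transcription regulators had 5 higher and 7 lower in ARID1A WT and 1 and 10 in ARID1B WT, and the 15 G1 regulators tested had 11 and 1, and 7 and 4, where 29.9% of all genes were called higher and 30.8% lower in ARID1A WT and 23.6% and 28.5% in ARID1B WT. E2F2 fell most in ARID1B WT (-1.27 ± 0.071), CBR (-0.80 ± 0.073) and delIDR1 (-0.67 ± 0.072), and E2F8, an E2F repressor, rose most in ARID1A WT (0.98 ± 0.1) and DBDmut (1.19 ± 0.098).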

How the data were processed

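RNA from AN3CA cells was extracted with an RNeasy kit and sequenced as mRNA libraries, per the labels' protocols. The authors deposited, for each of 28 libraries, read counts per gene in 3 strand settings, preceded by 4 summary lines that were kept out of library sizes and tests. The submitters' processing notes name bcl2fastq, STAR 2.5.2b, Bowtie2 2.29 and hg19, and the annotation is not given in the sources used here. The opposite-strand counts were used, since that setting held 84.5 to 98.6% of stranded gene reads. Libraries were grouped by label, with the empty vector split by strand profile into replicates 1 and 2 and replicates 3 and 4. All 28 libraries were fitted together with edgeR 4.0.16 in R 4.3.3 (TMM, filterByExpr, quasi-likelihood test, two-sided), and p-values were adjusted over 14220 genes, with a threshold of 0.05. The SE is the estimate divided by the root of F. The script was tested on simulated data. Alternatives were DESeq2 1.42.0, RLE scaling, no filter, unstranded counts, other control libraries, fewer libraries and a replicate block. The genes named were, in each comparison, the called extremes of each role group and a list of anchor genes. The members and lists were chosen with earlier results of these data known. Promoter sequences come from RefSeq (GRCh38.p14). Figures were drawn with matplotlib 3.10.9 in Python 3.11.15.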

Additional observations from a re-analysis of the deposited data

Results flagged for a closer look

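Responses to constructs of different strand profiles were compared in a test of the difference itself. This was a contrast of own-pair differences in edgeR's quasi-likelihood fit with Benjamini-Hochberg adjustment. They differed for all members between ARID1B WT and ARID1A WT, and for part of them between the DDX4 hybrid and ARID1A WT. Between ARID1B WT and ARID1A WT, 25 replication and 19 mitosis genes were called, where 41.6% of all genes were. Between the DDX4 hybrid and ARID1A WT, 17 replication and 6 mitosis genes were called, where 50.5% of all genes were, so the mitosis count is below that share. The gap between the 2 empty vector pairs is part of each of these values, and construct and strand profile cannot be told apart in them. In the 4 empty vector libraries none of the 44 genes had a single library apart from the other 3 by Dixon's criterion. That criterion weighs the gap at an end of the ordered values against their range. In most of the 44 genes these libraries formed 2 pairs with the wide gap between them, which keeps the end gaps small. CDC6, for example, stood at 35.0 and 33.2 CPM in the first pair and at 131 and 132 CPM in the second. The criterion therefore could not decide whether a single library stood apart within its pair. In the groups of 2 it could not be applied.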

How the results depend on the processing

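The choice of empty vector pair changed more than any other choice tried. Of 244 members called in the 7 comparisons with an empty vector pair, 105 kept their call and direction against the other pair, 21 kept the direction without a call and 118 changed sign, 96 of them with a call; with all 4 empty vector libraries as control 118 kept the call, 80 lost it and 46 changed sign. Counts against the other pair stand beside each result above: 0 replication and 0 mitosis genes higher in ARID1A WT, 25 replication genes lower in CBR, 3 and 1 higher in DBDmut, 24 replication genes higher in the DDX4 hybrid, 6 and 5 lower in ARID1B WT, and 1 and 0 lower in M2. With all 4 the counts were 0 and 0 higher in ARID1A WT, 17 replication genes lower in CBR, 3 and 4 higher in DBDmut, 11 and 9 lower in ARID1B WT, and 2 and 0 lower in M2. The share of all genes called was not counted for either of these controls. Among 13 genes followed one by one, these log2 differences changed sign against the other pair. In ARID1A WT this held for MCM2 (-0.60), PCNA (-0.43), RRM2 (-0.48), E2F1 (-0.30), CCNE1 (-0.53), CCNB1 (-0.62), AURKB (-0.57), TOP2A (-0.18), MKI67 (-0.39) and BIRC5 (-0.18). In CBR this held for MCM2 (-0.95), E2F1 (-0.43), CCNE1 (-0.40) and MKI67 (-0.28). In delIDR1 this held for MKI67 (-0.65). In DBDmut this held for MCM2 (-0.16), PCNA (-0.14), RRM2 (-0.10), CCNE1 (-0.21), CCNB1 (-0.21), PLK1 (-0.12), AURKB (-0.15) and MKI67 (-0.07). In the DDX4 hybrid this held for AURKB (0.89). In ARID1B WT this held for MCM2 (0.20), PCNA (0.47), RRM2 (0.54), CCNE1 (0.03), CCNE2 (0.75), CCNB1 (0.30), AURKB (0.18) and MKI67 (0.21). In M2 this held for MCM2 (0.63), PCNA (0.89), RRM2 (1.10), E2F1 (0.31), CCNE1 (0.53), CCNB1 (0.91), AURKB (0.89), TOP2A (0.24) and BIRC5 (0.51). With all 4 empty vector libraries fewer did. In ARID1A WT this held for MCM2 (-0.19), E2F1 (-0.02), CCNB1 (-0.21), AURKB (-0.13) and MKI67 (-0.07). In CBR this held for MCM2 (-0.53), E2F1 (-0.15) and CCNE1 (-0.10). In the DDX4 hybrid this held for AURKB (0.28). In M2 this held for MCM2 (0.06), PCNA (0.27), RRM2 (0.33) and AURKB (0.28). The gap between the pairs, given above, enters these values by construction, and its cause was not tested. Of 594 member calls in all 18 comparisons, RLE scaling kept 590, DESeq2 579, no low-count filter 575, counting without regard to strand 586 and a fit of only the groups compared 569, and no call changed sign under these settings. DESeq2 gave 5 mitosis genes lower in M2, no low-count filter gave 1 replication gene lower in Block13del against Block9del, and only the groups compared gave 0 replication and 0 mitosis genes in 42YS against the libraries labelled AQGscram, 15 mitosis genes in A457_G461del against Block9del and 0 in Block13del against Block9del. Leaving out 1 library, the lone sample being taken to vary like the other groups, kept 2442 of 2644 calls. Mitosis genes lower in M2 then numbered 5 to 7, and 42YS against AQGscram had 3 to 8 replication genes lower and 5 to 10 mitosis genes higher. A457_G461del had 15 to 18 replication and 2 to 5 mitosis genes below Block13del and 4 to 7 mitosis genes below Block9del, and Block13del against Block9del had 0 to 2. The cause of these changes was not tested. The least read members, POLE2 with as few as 52 reads, CCNE2 with 82 and GINS3 with 264, had the widest counting error.

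Replicate numbers did not pair the samples: only 2 numbers are shared, and deviations of same-numbered libraries from their group means correlated at -0.03 to 0.17. With the number as a replicate block 385 of 387 calls were kept and none changed sign, and the mitosis count for Block13del against Block9del went from 1 to 0.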
